A study of Homo sapiens with 9 samples.

Results

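The 10 genes described here carry out or control fatty acid synthesis and desaturation. They are ACLY, ACSS2, ACACA, FASN, ELOVL5, ELOVL6, SCD, FADS1, FADS2 and SREBF1, chosen by name as the steps of the pathway and compared over days 0, 2 and 14. All 10 were among the 27800 gene symbols of the table, and all 10 were among the 14144 tested, which had 1 TPM or more in 3 or more of the 9 libraries. TPM is an estimate of transcript abundance per transcript length, scaled so that each library has the same sum. Levels of different genes can therefore be compared within a library, but TPM keeps no record of sequencing depth, which was unknown.

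RNA sequencing was done on PANC-1, a human line grown from a pancreatic ductal tumour, in 3 libraries each at days 0, 2 and 14 of nutrient and oxygen deprivation. The medium named for the deprivation was DMEM with glucose at 2.5 mM, fetal calf serum at 0.5% and amino acids at 20% of their usual concentration, and no further treatment was given. Every column of the table is named WT, a prefix that the labels do not explain. The labels gave no oxygen level. They carried this medium for all 9 samples, so how the day 0 cells were kept was not stated. No undeprived cells at day 2 or day 14 were labelled, so deprivation, time in culture and any batch by day cannot be told apart. The labels did not say whether replicates were separate cultures, so p-values measure only the spread between these libraries, which may be technical. In bulk samples a smaller share of cells expressing a gene and less RNA per cell cannot be told apart.

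Fatty acids are built from acetyl-CoA, which ACLY makes from citrate and ACSS2 from acetate. ACACA carboxylates acetyl-CoA to malonyl-CoA, FASN joins these units into palmitate, and the ELOVL enzymes lengthen the product in the endoplasmic reticulum. SCD then places the first double bond, which gives oleate and palmitoleate, while FADS2 and FADS1 desaturate the polyunsaturated series. All 3 desaturases consume molecular oxygen and take electrons through cytochrome b5, whereas carboxylation and palmitate synthesis use no oxygen. SREBF1 encodes SREBP-1, a membrane-bound transcription factor that is released by proteolysis and activates most of these genes, and tumour cells often depend on the pathway or on imported unsaturated lipid.

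The epithelial identity of the line was visible in the libraries. All 6 epithelial markers were expressed, with a summed level of 3165 to 4409 TPM at day 0, 1079 to 1278 at day 2 and 1158 to 1362 at day 14, and VIM, a mesenchymal feature of this line, was at 881 to 2526 TPM. None of the 5 adipocyte markers and none of the 4 hepatocyte markers reached the level used for testing. Both cell types are known for high fatty acid synthesis. INS, GCG, DCN, CD3E and HBB were listed at 0 in all libraries. COL1A1 (8.29 to 72.6 TPM) and CD68 (21.3 to 68.6 TPM) were the only markers of other cells above the testing level. The fibroblast list summed to 10 to 61.0 TPM on day 0, 55.6 to 72.7 on day 2 and 8.42 to 12.6 on day 14, and the blood list to 35.2 to 68.6, 21.3 to 39.2 and 40.2 to 55.8. The part of these shifts in the results was not tested. One library stood apart. Day 0 replicate 2 had only 11363 genes that reached 1 TPM, and the others had 13016 to 13868, and 23.8% of its TPM was in ribosomal protein genes against 10.2% to 14.9%. Its level was 0.566 times the mean of day 0 replicates 1 and 3 at the median of all tested genes and 0.352 times at the median of the 10 genes, from 0.139 for ACACA to 0.864 for SREBF1. Day 0 is the reference of both main comparisons, so results are given with and without this library, and its part in them was not tested further.

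The 250 bases before the transcription start are shown for 3 genes that differ in their response, described further on: SCD, which rose most, FADS1, a smaller rise, and ACLY, which did not pass the test. The sequences are from RefSeq (GRCh38.p14) and are written in the direction of transcription. Capitals mark the CCAAT box (CCAAT) and the GC box (GGGCGG), on either strand, the elements bound by NF-Y and by SP1, with which SREBP-1 commonly acts. Positions are counted back from the start.
SCD, chr10:100346983-100347232, plus strand: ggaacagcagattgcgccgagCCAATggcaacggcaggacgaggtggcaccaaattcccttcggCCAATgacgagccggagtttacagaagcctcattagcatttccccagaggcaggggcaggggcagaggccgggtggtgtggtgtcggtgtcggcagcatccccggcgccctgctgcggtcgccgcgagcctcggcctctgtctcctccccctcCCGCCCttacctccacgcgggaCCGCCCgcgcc
FADS1, chr11:61817004-61817253, minus strand: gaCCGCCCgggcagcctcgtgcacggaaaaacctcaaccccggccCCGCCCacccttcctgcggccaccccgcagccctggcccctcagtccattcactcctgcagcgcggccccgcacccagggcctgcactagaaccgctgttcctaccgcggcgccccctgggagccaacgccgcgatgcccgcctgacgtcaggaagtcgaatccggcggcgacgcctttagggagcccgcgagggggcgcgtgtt
ACLY, chr17:41919023-41919272, minus strand: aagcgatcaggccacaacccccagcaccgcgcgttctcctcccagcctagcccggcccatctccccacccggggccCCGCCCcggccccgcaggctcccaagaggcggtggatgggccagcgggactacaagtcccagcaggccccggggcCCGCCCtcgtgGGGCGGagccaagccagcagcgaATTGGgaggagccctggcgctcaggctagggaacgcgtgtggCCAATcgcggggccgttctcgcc

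SCD had CCAAT boxes beginning 229 and 186 bases before its start and GC boxes at 33 and 11. ACLY had CCAAT boxes at 65 and 23 and GC boxes at 174, 99 and 88, counted from the start shown. From its other listed start the CCAAT boxes were at 136 and 94 and GC boxes at 245, 170, 159 and 59. FADS1 had GC boxes at 248 and 205 and no CCAAT box in this window. FADS2 lies on the opposite strand of chromosome 11, and its listed starts are 800 and 599 bases downstream of the FADS1 start, so that the listed 5′ ends of the 2 genes overlap. The strand setting was not given, so reads from such an overlap may not be told apart. For the FADS2 start at 800 bases, a stretch after the start was not found in GENCODE transcripts of FADS2 in either direction. Starts of FADS2 that were not listed were not examined. Windows were listed for 9 of the 10 genes, 14 windows in all. A CCAAT box was in 7 of the 14 windows, from 5 genes, and a GC box in 11, from 8 genes. The 2 windows of ACLY overlapped, as did the 2 of FADS2, so the windows are not independent and boxes shared by the ACLY windows count in both. Over all 35116 listed windows of this length outside chromosome 8, 32.0% held a CCAAT box and 42.6% a GC box. The core of the sterol regulatory element (TCACNCCAC) was in 0 of the 14 windows and in 0.883% of all. NACGTG, the form of the hypoxia response element core with A before CGTG, was in 3 of the 14 windows and 18.5% of all. Cores with G before CGTG were not counted. The E-box (CACGTG), a subset of NACGTG, was in 1 window and 6.34% of all. All motifs were searched on both strands. A match is a run of letters and no evidence of binding, and a missing match says only that those letters are not in this window.

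**Figure D1:**
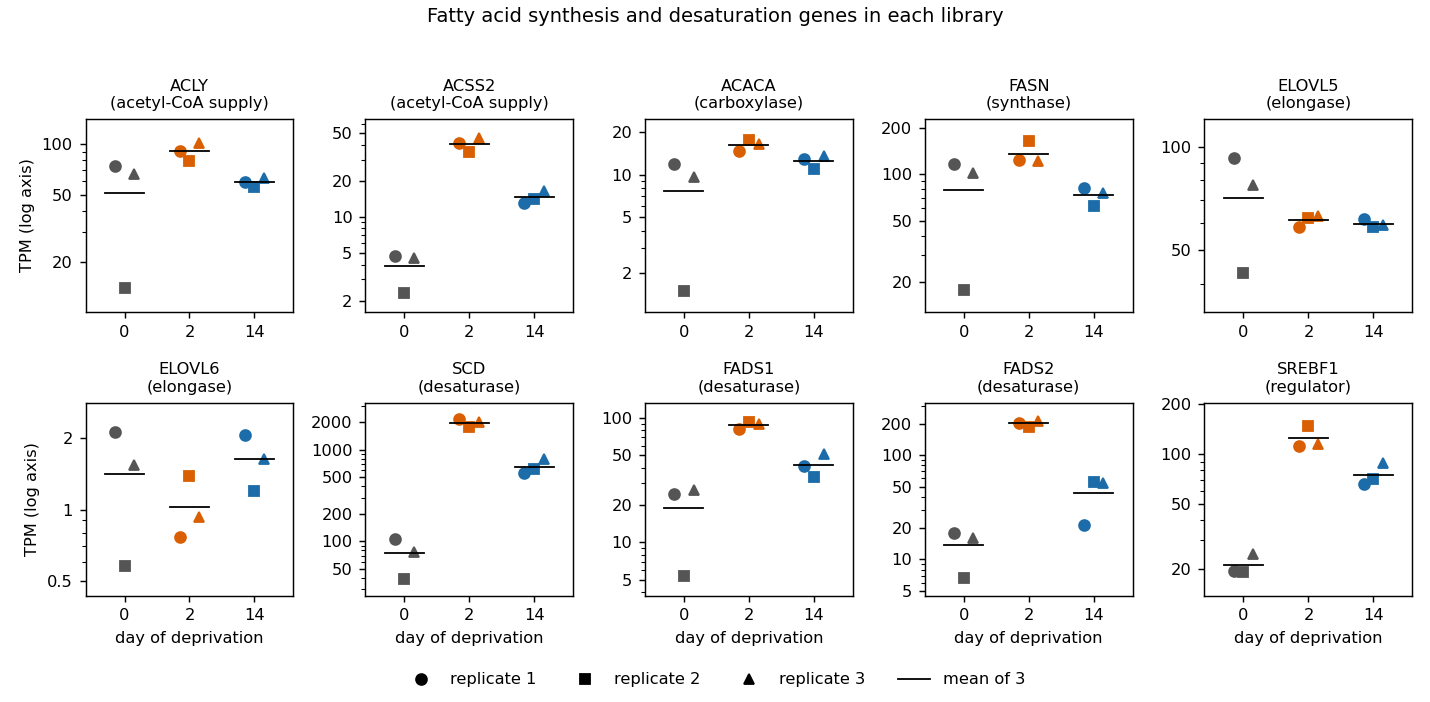
TPM of the 10 genes in each library, on log axes that differ between panels, with circles, squares and triangles for replicates 1, 2 and 3 and a line for the mean of 3 libraries. SCD, FADS2, ACSS2 and SREBF1 are higher in every day 2 library than in any day 0 library, and the square of day 0 is the lowest day 0 point in each panel.

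After 2 days the 3 desaturases, the acetate-activating enzyme ACSS2 and the regulator SREBF1 were higher, and none of the 10 genes was called lower. Thus 5 of 10 rose (limma, adjusted p under 0.05), beside 19.2% of all tested genes called higher and 11.5% called lower. At an unadjusted p under 0.05, 6 were higher and 0 lower. The median log2 change of the 10 was 1.86 and that of all tested genes 0.23. In 8 of 10 genes every day 2 library was above every day 0 library, which held for 33.4% of all tested genes, with 17.4% the other way round. Without day 0 replicate 2, 6 of 10 rose and 1 fell, beside 24.5% and 23.7% of all genes. With another scaling the all-gene calls moved from 2715 higher and 1633 lower to 2591 and 2815 (quantile normalization). Median-ratio scaling shifted the all-gene median to 0.012, so some changes are also set against the all-gene median.

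SCD, the stearoyl-CoA desaturase, had 107, 39.0 and 75.9 TPM in replicates 1, 2 and 3 of day 0. It was at 2138, 1785 and 2007 TPM on day 2 and at 558, 611 and 782 TPM on day 14. The days did not overlap, and the lowest day 14 library was above the highest day 0 library. The mean rose from 73.8 ± 33.9 to 1977 ± 179 TPM (SD, n = 3) by day 2. The log2 change was 4.83 with an SE of 0.34 (adjusted p = 8.6e-05), or 4.6 above the all-gene median. This was rank 16 among the 14144 tested genes. The log2 change was 4.44 without day 0 replicate 2.

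FADS2, the delta-6 desaturase at the entry of polyunsaturated fatty acid synthesis, was at 18.1, 6.68 and 16.2 TPM on day 0. It was at 206, 188 and 216 TPM on day 2, above all day 0 libraries. The log2 change was 3.9 ± 0.43 (adjusted p = 0.000553), rank 44 of all tested genes, and 3.49 without day 0 replicate 2. FADS1, the delta-5 desaturase that acts later in the same series, was at 24.7, 5.38 and 26.3 TPM on day 0. Its day 2 libraries were at 82.3, 92.4 and 89.8 TPM, again without overlap. FADS1 rose by 2.43 ± 0.50 on the log2 scale (adjusted p = 0.00778). Its rise was 1.75 without day 0 replicate 2, where FADS1 was 0.211 times the mean of the other day 0 libraries. The level of FADS2 relative to FADS1, 0.735, 1.24 and 0.617 in the day 0 libraries, was 2.50, 2.03 and 2.40 on day 2. FADS2 was thus the more abundant of the 2 in all day 2 libraries and in 1 of 3 day 0 libraries, the one that stood apart.

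SREBF1 was at 19.7, 19.2 and 24.7 TPM on day 0 and at 111, 148 and 115 TPM on day 2. It was the one gene of the 10 that day 0 replicate 2 hardly set apart. It rose by 2.50 ± 0.20 on the log2 scale (adjusted p = 0.000152) and by 2.43 without that library. The symbol pools SREBP-1a and SREBP-1c, which differ in their first exon, and RNA does not report how much of the precursor was cleaved. ACSS2 was at 4.73, 2.32 and 4.56 TPM on day 0 and at 41.5, 35 and 45.3 TPM on day 2, a log2 change of 3.13 ± 0.25 (adjusted p = 0.000152). The 5 genes named so far kept their day 2 direction and call under every alternative that was run.

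The enzymes of the main route to palmitate did not pass the test on day 2 with all libraries. ACLY was at 73.8, 14.0 and 66.3 TPM on day 0 and at 90.8, 79.1 and 101 TPM on day 2. FASN was at 116, 17.8 and 102 TPM on day 0 and at 124, 164 and 121 TPM on day 2. ACACA was at 12, 1.5 and 9.61 TPM on day 0 and at 14.6, 17.5 and 16.4 TPM on day 2. In all 3 the day 2 libraries lay above the day 0 libraries, but day 0 replicates 1 and 3 were close below them and replicate 2 far below. The log2 changes were 1.10 for ACLY (adjusted p = 0.145), 1.16 for FASN (0.175) and 1.29 for ACACA (0.099). They were, without day 0 replicate 2, 0.36 (0.052), 0.31 (0.177) and 0.55 (0.0162), so that ACACA was then called higher. ACACA was also called without day 0 replicate 1 (log2 change 1.73, adjusted p = 0.0423) and with quantile normalization, and both ACACA and ACLY were called with array weights.

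Neither elongase passed the test with all libraries. ELOVL5, which lengthens polyunsaturated chains, was at 92.8, 43.0 and 77.7 TPM on day 0, at 58.6, 62.1 and 63.2 TPM on day 2 and at 61.6, 58.4 and 59.4 TPM on day 14. Its day 0 libraries lay on both sides of the later ones. The log2 change at day 2 was -0.14 (adjusted p = 0.704), but without day 0 replicate 2 ELOVL5 was called lower, at -0.46 (adjusted p = 0.00923). The change was 0.08 without day 0 replicate 1 (adjusted p = 0.819), so its direction depended on which day 0 library was kept. ELOVL6, which lengthens palmitate to stearate, the substrate of SCD, was the least abundant of the 10. It was at 2.12, 0.578 and 1.55 TPM on day 0, at 0.768, 1.39 and 0.929 TPM on day 2 and at 2.08, 1.20 and 1.64 TPM on day 14. The days overlapped, the day 2 change was -0.21 (adjusted p = 0.579), and at this level fold changes of TPM + 1 understate the change. ELOVL6 passed as lower at day 2 with quantile normalization (log2 change -0.68, adjusted p = 0.0144), with array weights (0.0112) and with a length trend removed (0.0199).

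**Figure D2:**
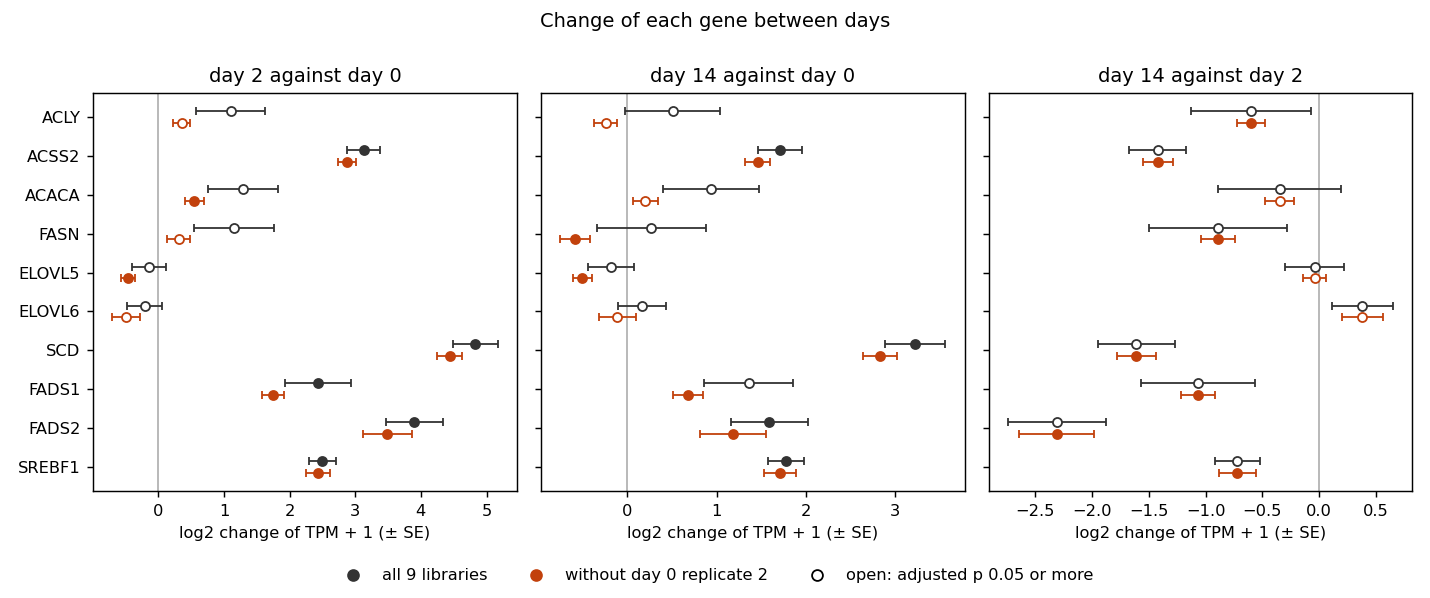
Log2 change of TPM + 1 of each gene (horizontal axis, bars ± SE) in the 3 comparisons, with all 9 libraries in black and without day 0 replicate 2 in orange; filled points passed at an adjusted p under 0.05. SCD at day 2 lies at 4.83 and 4.44, while ACLY, ACACA and FASN move from 1.10 to 1.29 with all libraries down to 0.31 to 0.55 without that one.

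After 14 days the rises of SCD, FADS2, ACSS2 and SREBF1 were smaller but still past the test against day 0. Thus 4 of 10 genes rose, beside 27.5% of all tested genes called higher and 6.72% called lower. No listed gene was called lower by limma, and at an unadjusted p under 0.05 the counts were 5 higher and 0 lower. In 5 genes all day 14 libraries lay above all day 0 libraries, beside 42.5% of all tested genes, with 9.95% the other way round. The median log2 change was 1.15 for the 10 genes and 0.44 for all. Without day 0 replicate 2, 5 of 10 rose and 2 fell, beside 34.5% and 14.6% of all genes. The all-gene calls of 3890 higher and 951 lower became 2371 and 2371 with median-ratio scaling, which shifted the all-gene median to 0.004.

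SCD was at 651 ± 117 TPM on day 14 (SD, n = 3), a log2 change of 3.22 ± 0.34 against day 0 (adjusted p = 0.000494) and 2.78 above the all-gene median. SREBF1 was at 66.0, 71.1 and 88.2 TPM, above every day 0 library, and rose by 1.78 ± 0.20 (adjusted p = 0.000625). ACSS2 was at 13.1, 14.1 and 16.5 TPM and rose by 1.71 ± 0.25 (adjusted p = 0.00175). These 3 genes kept their call under every alternative that was run. FADS2 was at 21.5, 55.0 and 53.9 TPM, so that replicate 1 lay near the day 0 level of 18.1 TPM and the other libraries well above it. Its log2 change of 1.59 ± 0.43 passed (adjusted p = 0.0225), but not without day 14 replicate 2 (0.0807), without day 14 replicate 3 (0.0797), with median-ratio scaling (0.0585) or with only the 2 days compared in the fit (0.0677). FADS1 was at 41.2, 33.3 and 51.3 TPM, above all day 0 libraries. Its log2 change of 1.36 ± 0.50 missed the threshold (adjusted p = 0.0646). It passed without day 0 replicate 1 (0.0432), replicate 2 (0.0138, with a log2 change of 0.68) or replicate 3 (0.0371).

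The enzymes of the route to palmitate did not pass on day 14 with all libraries. FASN was at 81.6, 62.0 and 75.3 TPM on day 14, below day 0 replicates 1 and 3 (116 and 102 TPM) and above replicate 2 (17.8 TPM). Its log2 change was 0.27 ± 0.61 with all libraries (adjusted p = 0.752) and -0.58 ± 0.17 without day 0 replicate 2, where it was called lower (adjusted p = 0.026). ACLY was at 59.2, 55.7 and 62.8 TPM, with a log2 change of 0.51 (adjusted p = 0.477) and -0.24 without that library (adjusted p = 0.16). ACACA was at 13.0, 11 and 13.6 TPM, with changes of 0.94 (adjusted p = 0.196) and 0.20 (adjusted p = 0.28). For FASN and ACLY the sign of the change at day 14 thus turned with 1 library, and it also turned under median-ratio scaling (-0.27 and -0.02). ELOVL5 had a change of -0.18 (adjusted p = 0.618) and was called lower without day 0 replicate 2 (-0.50, adjusted p = 0.00673). ELOVL6 changed by 0.17 with all libraries (adjusted p = 0.641) and by -0.11 without that library (adjusted p = 0.683).

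Between day 2 and day 14 none of the 10 genes passed limma's test with all libraries, beside 0.212% of all tested genes called higher and 0.205% called lower. At an unadjusted p under 0.05, 0 were higher and 4 lower. The libraries themselves were apart: in 8 of 10 genes, all but the elongases, every day 14 library was below every day 2 library, which held for 7% of all tested genes. The median log2 change was -0.81 for the 10 genes and 0.24 for all. The largest differences were those of FADS2 (-2.31 ± 0.43, adjusted p = 0.0656), SCD (-1.61 ± 0.34, 0.0763), ACSS2 (-1.42 ± 0.25, 0.0564) and FADS1 (-1.07 ± 0.50, 0.302). SREBF1 differed by -0.72 ± 0.20 (adjusted p = 0.119), FASN by -0.89 ± 0.61 (0.483), ACLY by -0.60 ± 0.53 (0.602) and ACACA by -0.35 ± 0.54 (0.777). Day 0 does not enter these differences, but its libraries enter the shared estimate of the spread. Without day 0 replicate 2 the differences were the same, the SE of SCD was 0.17, and 7 genes were called lower, all of the above but ACACA, with adjusted p from 0.0036 for ACSS2 to 0.0209 for SREBF1. The same fit called 3.82% of all tested genes lower and 23.4% higher. The fit of days 2 and 14 alone also called 7 lower. The all-gene calls of 30 higher and 29 lower were 30 and 84 with median-ratio scaling.

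Seen as the share of the day 2 rise in mean TPM that remained on day 14, SREBF1 kept 52.1%, FADS1 33.4%, SCD 30.3%, ACSS2 29.1% and FADS2 15.7%. With day 0 replicate 2 left out of the reference these shares were 51.6%, 26.3%, 29.7%, 27.6% and 14.1%. Of these 5, SREBF1 had the most left and FADS2 the least in both versions. FADS2 also had the widest spread on day 14 relative to its mean (43.5 ± 19.0 TPM). These shares are descriptions without a test.

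In group means taken within each library, the desaturases moved apart from the synthesis enzymes. Single members did not all follow this split. ACSS2, counted with synthesis, rose more than FADS1 at day 2 (log2 changes of 3.13 and 2.43). At day 14 ACSS2 rose by 1.71, more than FADS2 (1.59) and FADS1 (1.36). The mean log2(TPM + 1) of SCD, FADS1 and FADS2 minus that of ACLY, ACSS2, ACACA and FASN was 0.40, 0.85 and 0.38 in the day 0 libraries. It was 2.66, 2.54 and 2.6 on day 2 and 1.36, 1.90 and 1.97 on day 14. The 3 days did not overlap, and day 0 replicate 2, whose members were low together, was the highest of day 0 in this measure. The mean difference grew by 2.05 from day 0 to day 2 and by 1.20 to day 14, and the change from day 2 to day 14 was -0.85. Across the alternatives these values stayed between 1.97 and 2.22, between 1.09 and 1.47, and between -0.97 and -0.66. The genes were chosen with these data known, so no test is given, and with 3 libraries against 3 an exact permutation test could not go below p = 0.1.

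Ratios of 2 genes within a library do not depend on the scaling factor of that library. SCD was at 0.920, 2.19 and 0.742 times the level of FASN on day 0, at 17.2, 10.9 and 16.6 times on day 2 and at 6.84, 9.86 and 10.4 times on day 14. SCD transcripts went from fewer than those of FASN in 2 of 3 day 0 libraries to many more in every later one. SCD alone held 22.7%, 26.1% and 18.7% of the summed TPM of the 10 genes on day 0, 74.5%, 69.4% and 72.3% on day 2 and 60.8%, 62.8% and 64.9% on day 14. FADS1 over FASN was 0.213 to 0.302 on day 0, 0.565 to 0.742 on day 2 and 0.505 to 0.681 on day 14. FADS2 over FASN was 0.157, 0.375 and 0.159 on day 0, 1.65, 1.15 and 1.78 on day 2 and 0.263, 0.886 and 0.716 on day 14, so that day 14 overlapped day 0. Within the supply of acetyl-CoA, ACSS2 over ACLY was 0.0641, 0.165 and 0.0687 on day 0, 0.457, 0.442 and 0.447 on day 2 and 0.221, 0.253 and 0.263 on day 14. The acetate enzyme therefore gained on the citrate enzyme in every library of both later days, and ACLY remained the more abundant. ACACA over FASN was 0.0842 to 0.103 on day 0, 0.107 to 0.136 on day 2 and 0.159 to 0.181 on day 14, higher on each later day without overlap. SREBF1 over SREBF2, its sterol-directed paralogue, was 0.956, 4.20 and 1.37 on day 0, with the highest value in the library that stood apart, and 0.802 to 1.18 over the 6 later libraries.

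**Figure D3:**
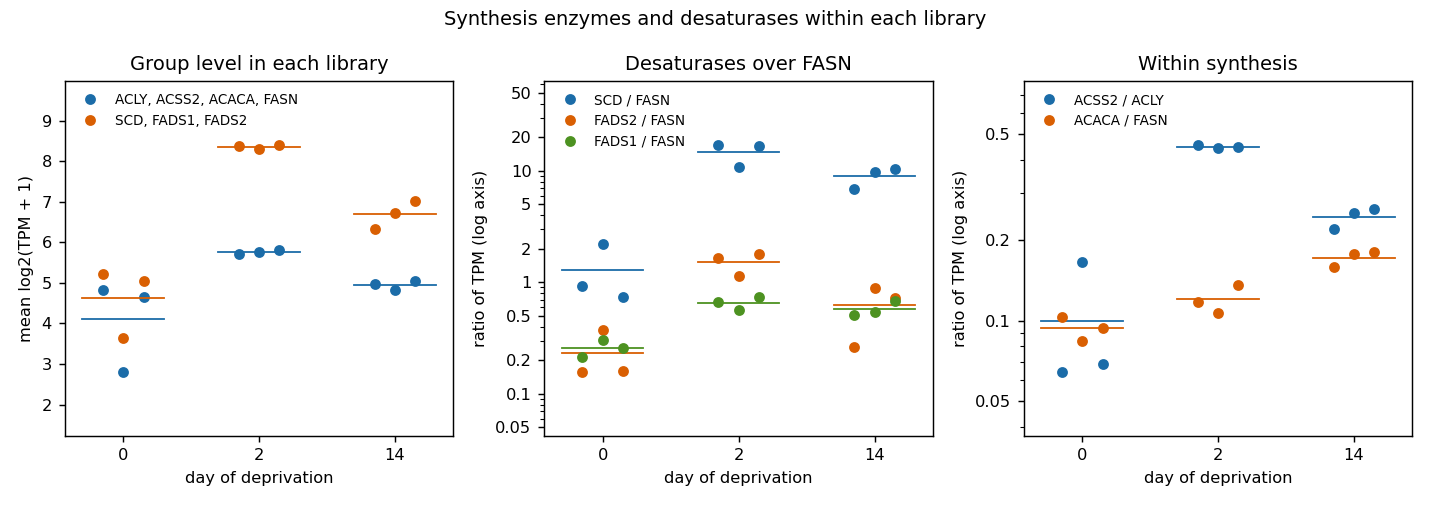
Left, mean log2(TPM + 1) of the 4 synthesis enzymes and of the 3 desaturases in each library; middle and right, ratios of TPM within a library on log axes; lines are means of 3 libraries. The desaturase level exceeds the synthesis level by 0.38 to 0.85 on day 0, 2.54 to 2.66 on day 2 and 1.36 to 1.97 on day 14.

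Other genes of the pathway were followed in 10 lists of 99 genes, of which 82 were tested. On day 2, 33 of the 82 rose and 11 fell, and on day 14, 37 rose and 2 fell, with median changes of 0.53 and 0.66 beside 0.23 and 0.44 for all tested genes. The all-gene shares were 19.2% called higher and 11.5% lower on day 2, and 27.5% and 6.72% on day 14, and each list's count is a description to be read against these shares. The share of falls on day 2 was near that of all genes. These counts were, without day 0 replicate 2, 33 and 15, and 40 and 9, where all-gene shares were 24.5% and 23.7%, and 34.5% and 14.6%. The day 14 counts leaned on the scaling: they were 20 and 17 with median-ratio scaling, 24 and 11 with quantile normalization and 24 and 15 with a length trend removed, while those of day 2 were 32 and 15, 30 and 16, and 30 and 13. Where a scaling removed the call of a gene named here, its adjusted p is given. Among 11 accessory genes of synthesis, 4 rose and 3 fell on day 2. ME1 and IDH1, which supply NADPH, rose by 2.12 and 1.99, ME1 from 13.3, 12.6 and 9.60 to 57.9, 48.6 and 57.8 TPM. MCAT, the malonyl transferase of mitochondrial fatty acid synthesis, fell by 0.82, and PPT1, a lysosomal thioesterase that removes palmitate from proteins, fell by 1.03. On day 14 IDH1 was still higher, by 1.53, with an adjusted p of 0.0533 under median-ratio scaling.

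Of 8 tested remaining elongation enzymes, 1 rose, 3 fell and 4 did not pass on day 2, beside 19.2% and 11.5% of all tested genes, and the list's median was -0.41. ELOVL2, an elongase of long polyunsaturated chains, was at 37.0, 11.1 and 32.4 TPM on day 0 and at 9.58, 8.89 and 10.4 TPM on day 2, a log2 change of -1.23 (adjusted p = 0.0419) and -1.75 without day 0 replicate 2. HACD3, a dehydratase of the elongation cycle, fell by 0.94, whereas HSD17B12, its ketoreductase, rose by 1.04. On day 14, HACD1 and TECR, another dehydratase and the last reductase of the cycle, had log2 changes of -1.17 and -0.51, the only genes of the 82 called lower, and both calls held under each scaling.

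Other oxygen-dependent enzymes were measured beside the desaturases. FADS3, a homologue in the same gene cluster as FADS1 and FADS2, was at 8.64, 6.01 and 8.97 TPM on day 0, at 29, 41.0 and 27.6 TPM on day 2 and at 12.9, 16.5 and 21.8 TPM on day 14. It rose by 1.91 at day 2 and 1.02 at day 14, the latter not called with median-ratio scaling (adjusted p = 0.107) or quantile normalization (0.118). Of the 10 tested genes of its list, which also holds the electron donors, 3 rose and 1 fell on day 2. These counts were 3 and 3 without day 0 replicate 2 or with median-ratio scaling, and 2 and 3 with quantile normalization. On day 14, 4 rose (1 rose and 2 fell with median-ratio scaling). DEGS1 was at 65.5, 43.6 and 53.5 TPM on day 0 and at 37.2, 40.9 and 39.8 TPM on day 2. Its change of -0.44 did not pass (adjusted p = 0.1), but passed without day 0 replicate 2 (-0.58, adjusted p = 0.00595). SCD5 did not pass on day 2 (0.23, adjusted p = 0.555). Among the donors, CYB5B, the outer mitochondrial cytochrome b5, rose by 1.14 on day 2. CYB5A, the form of the endoplasmic reticulum, fell by 0.74. CYB5R1, CYB5R2, CYB5R3 and CYB5R4 did not pass on day 2 (adjusted p = 0.588, 0.159, 0.262 and 0.728). Without day 0 replicate 2, CYB5R2 was called lower (adjusted p = 0.0101). DEGS2, a sphingolipid desaturase and hydroxylase, was at 0 to 0.105 TPM on day 0 and 1.08 to 1.5 TPM on day 14, near the testing level, and its call was lost with quantile normalization (adjusted p = 0.0578) and a length trend removed (0.116). All 4 tested oxygen-dependent enzymes of sterol synthesis rose on both days. The day 2 count was 4 under each scaling, but on day 14 it was 0 with median-ratio scaling, 1 with quantile normalization and 3 with a length trend removed. MSMO1, the sterol C4-methyl oxidase, rose by 2.33 on day 2 and SQLE, the squalene epoxidase, by 1.82. Both were called lower on day 14 than on day 2, at -1.28 (adjusted p = 0.047) and -1.17 (adjusted p = 0.031). The differences of FADS2 and SCD given above were larger, with wider SE.

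Regulators of the pathway included 12 genes of SREBP processing, of which 5 rose and 1 fell on day 2 and 8 rose on day 14 (5 rose and 1 fell with median-ratio scaling). SREBF2, which encodes SREBP-2, was at 20.6, 4.56 and 18.0 TPM on day 0, at 107, 137 and 115 TPM on day 2 and at 82.3, 81.8 and 74.7 TPM on day 14. Its rise of 3.19 at day 2 was 2.57 without day 0 replicate 2. LPIN1, a phosphatidate phosphatase that can restrain nuclear SREBP, rose by 3.32, and ERLIN1, part of a complex that holds SREBP back, fell by 0.75. INSIG1, the anchor of the SREBP escort complex, was at 96.4, 98.1 and 100 TPM on day 2 and at 40.4, 28.2 and 40.4 TPM on day 14, and was called lower on the later day (-1.43, adjusted p = 0.031). In the list of LXR and other regulators 6 of 15 rose and 2 fell on day 2. MLXIP (MondoA, a glucose-sensing factor) and PPARA rose by 1.89 and 1.62, and MLX, the partner of MLXIP, and USF1 fell by 0.77 and 0.64. Without day 0 replicate 2 the changes were 1.07 for MLXIP, 1.40 for PPARA, -0.93 for MLX and -0.72 for USF1. On day 0 MLXIP was at 20.7, 3.12 and 22.7 TPM, and PPARA, at 0.806, 0.150 and 0.837 TPM, was under 1 TPM. The LXR genes NR1H2 and NR1H3 did not pass on day 2 (-0.08 and -0.12). Of 6 LXR targets outside the 10 genes, NR1H3 among them, 2 rose on day 2 and 4 on day 14. These counts were 1 and 3 with median-ratio scaling or quantile normalization, the latter with 1 fall on day 2. ABCG1 and MYLIP rose on day 14 (1.47 and 1.18), ABCG1 from 0.190, 0.121 and 0.348 TPM on day 0.

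Several genes that bring in or activate fatty acids were higher as well. Of 3 tested acyl-CoA synthetases, ACSL3 and ACSL4 rose on day 2, by 1.81 and 1.10. Of 6 tested genes of fatty acid uptake, 3 rose and 1 fell on day 2. VLDLR rose by 1.65 from under 1 TPM, and the fatty acid transporter SLC27A4 fell by 1.39. AMP kinase, which inactivates ACACA by phosphorylation, was followed by its subunit genes and its upstream kinases STK11 and CAMKK2. Of these 8 genes, 3 rose on day 2 and 4 on day 14, beside 19.2% and 27.5% of all tested genes. With median-ratio scaling or a length trend removed, 3 rose on day 14. The catalytic subunit PRKAA2 rose by 1.44 and the regulatory subunit PRKAB2 by 1.02 on day 2, the latter not called with quantile normalization (adjusted p = 0.06) or a length trend removed (0.063).

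**Figure D4:**
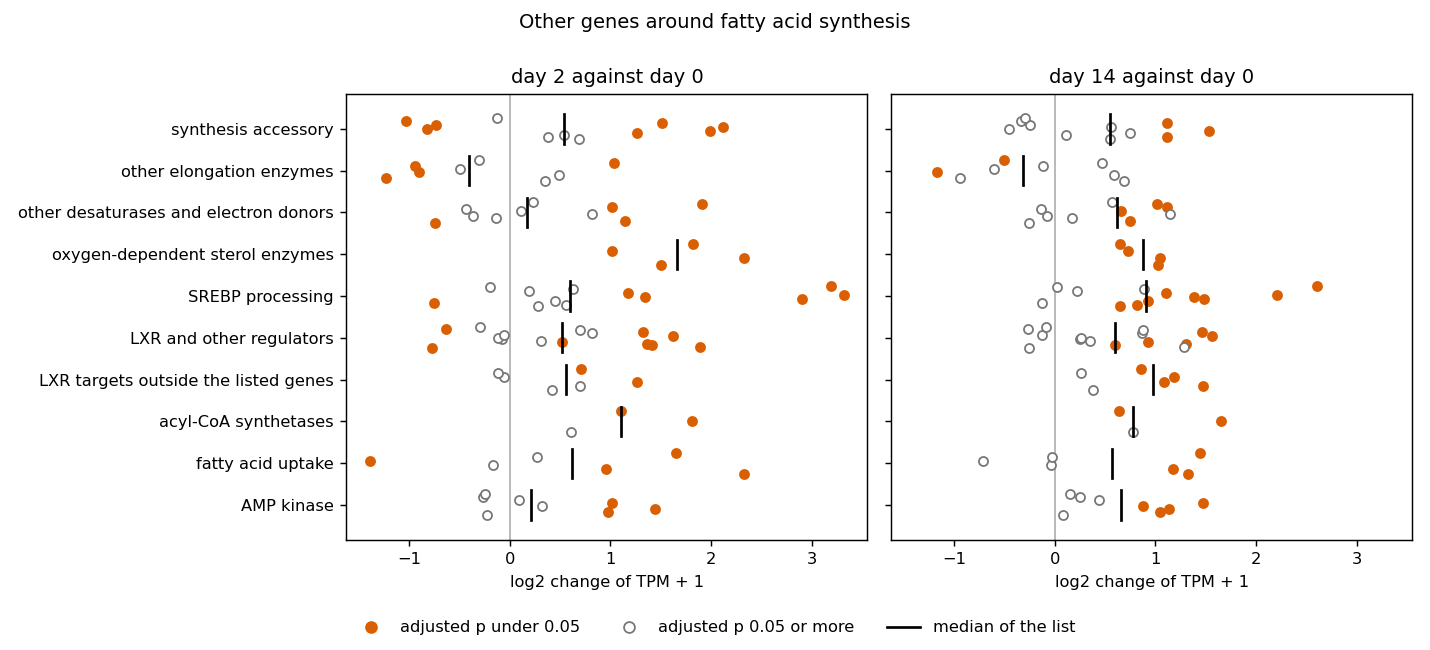
Log2 change of TPM + 1 of each tested gene in 10 lists around fatty acid synthesis, against day 0; filled points passed at an adjusted p under 0.05 and bars are medians of a list. All 4 oxygen-dependent sterol enzymes lie to the right of 0 on both days, with no day 14 call under median-ratio scaling, and the median of the other elongation enzymes lies at -0.41 on day 2 and -0.32 on day 14.

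The genes whose level over the 9 libraries was most like that of 3 members were listed by Pearson's r of log2(TPM + 1) among 9148 named genes. For SCD these were LPIN1 (0.997), TMEM189 (0.994), SYNGR3 (0.989), ACSS2 (0.989) and STARD4 (0.988). TMEM189 encodes the desaturase that makes plasmalogens, STARD4 is a sterol carrier and SYNGR3 a synaptic vesicle protein. For SREBF1 they were FGF11 (0.994), PIK3IP1 (0.992), SLC29A4 (0.989), CCNG2 (0.988) and BMF (0.987), and no other listed gene was among them. On day 0, FGF11, PIK3IP1, CCNG2 and BMF had means of 0.908, 0.425, 0.340 and 0.439 TPM. These genes met the filter at a mean of 5 TPM only through the later days. For FASN they were HOXB3 (0.979), PGD (0.978), PRKCD (0.978), CYP2S1 (0.977) and UBE2O (0.974), of which PGD makes NADPH in the pentose phosphate pathway. Without day 0 replicate 2 the values were 0.983 to 0.997 for SCD, 0.982 to 0.994 for SREBF1 and 0.875 to 0.913 for FASN. The libraries fall into 3 days, so many genes share such a course, and these values describe likeness only.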

How the data were processed

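PANC-1 RNA was measured by sequencing in 9 libraries, 3 each at days 0, 2 and 14. The values are the TPM that the authors deposited, by gene symbol. Salmon made them, with hg19 as the genome build, according to the submitters' processing notes. Its version, the annotation, strand setting and read filters are not given in the sources used here. Salmon shares reads among transcripts, so levels of similar genes can depend on the annotation. TPM keeps no depth, so no counting interval is given.

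Columns were assigned to samples by the day and replicate number in their names. Values were analysed as log2(TPM + 1), where the pseudocount of 1 understates changes of low genes. Tests covered symbols with 1 TPM or more in 3 or more of the 9 libraries, 14144 of 27800. Each comparison of days was a two-sided contrast in limma (version 3.58.1, R 4.3.3). All 9 libraries entered the same model, the prior variance followed the mean level, and p-values were adjusted by Benjamini-Hochberg over all tested genes, with a threshold of 0.05. The comparisons with day 0 share its 3 libraries. Summaries used Python 3.11.15 with pandas 2.3.3, and figures matplotlib 3.10.9.

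The 10 genes, the other lists and the alternatives were chosen with earlier results of these data known. All 10 are named in every comparison. Of each other list the rule took up to 2 rises and 2 falls per comparison with the largest log2 change and a mean of at least 1 TPM in the higher group, and not all of these are printed. Genes most like SCD, FASN and SREBF1 were the 5 with the highest Pearson's r among tested genes with a mean of at least 5 TPM and a conventional symbol. Promoter windows of 250 bases and motif counts are from RefSeq (GRCh38.p14) and do not use the build of the table. GENCODE transcript lengths, matched for 92.4% of symbols, served only for the alternative that removes a length trend.

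The alternatives used pseudocounts of 0.1 and 5, every symbol or a filter at a mean of 5 TPM, scaling by median ratios or quantiles or after removal of ribosomal protein genes, and leaving out each library. Within limma they were a constant prior variance, robust moderation, array weights, a replicate block, and a model of the 2 days compared alone. Removing a trend on transcript length, and the counts of the other lists under each scaling, were chosen after seeing the data.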

Additional observations from a re-analysis of the deposited data

How the results depend on the processing

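The day 2 calls of SCD, FADS1, FADS2, ACSS2 and SREBF1 and the day 14 calls of SCD, ACSS2 and SREBF1 held under every alternative run. With a mean of at least 5 TPM, ELOVL6 was not tested and has no value. The 0 listed genes called lower on day 2 became 1 with quantile normalization or the length trend removed and 2 with array weights, and ranged from 0 to 1 when a library was left out. On day 14 the 0 called lower became 1 with median-ratio scaling or the length trend removed and 2 with array weights, and 0 to 2 with a library left out. Between day 14 and day 2 it became 2 with a pseudocount of 5 or without ribosomal protein genes, 3 with median-ratio scaling or the length trend removed, 4 with quantile normalization, 7 with array weights or only these days in the fit, and 0 to 7 with a library left out, where the 7 came without day 0 replicate 2. With array weights the desaturases gained 1.47 on the synthesis enzymes at day 14, against 1.20.

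Signs turned for small changes. At day 14, ACLY was at -0.022 with median-ratio scaling, -0.19 with array weights, -0.000384 with the length trend removed and -0.24 to 0.92 with a library left out. FASN was at -0.27 with median-ratio scaling, -0.024 with quantile normalization, -0.57 with array weights, -0.46 with the length trend removed and -0.58 to 0.74 with a library left out. ELOVL6 was at -0.12, -0.40, -0.11 and -0.47 under these 4 settings, in that order, and at -0.11 to 0.38 with a library left out. ELOVL5 ranged from -0.50 to 0.047 at day 14 and from -0.46 to 0.082 at day 2 with a library left out, and ELOVL6 from -0.49 to 0.0065 at day 2. Between day 14 and day 2, ELOVL5 was at 0.000654 without ribosomal protein genes. Apart from the effect of fewer libraries, the cause was not tested.

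Counts over all tested genes moved more. Called higher and lower, they were 1671 to 4313 and 945 to 4662 on day 2, 2349 to 5670 and 578 to 2785 on day 14, and 0 to 4407 and 1 to 645 between those days. Deviations from the mean of each day were hardly correlated between same-numbered replicates of different days (correlations from -0.079 to 0.015). With 3 libraries per day this cannot decide whether the numbers pair the libraries, which the labels do not state. With the replicate block, 5 listed genes were called higher at day 2 and 4 at day 14, as without it, and 0 between day 14 and day 2. The block gave 2064 higher and 1226 lower calls over all genes at day 2, 3039 and 732 at day 14, and 1 and 1 between those days. Unknown depth limits what can be said of ELOVL6 and other genes near 1 TPM.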
